A study of Mus musculus with 4 samples.

Results

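The guanylate-binding proteins (GBPs) and the immunity-related GTPases (IRGs) are 2 families of interferon-induced GTPases, and 10 of their genes were followed here: Gbp2b, Gbp2, Gbp3, Gbp4, Gbp6, Gbp7, Iigp1, Irgm1, Irgm2 and Igtp. They were taken by name, with every probe set that the platform annotation assigns to them. The set was chosen by measured values of these arrays: Gbp2b and Iigp1 differed in opposite directions between the genotypes. That gave 14 of 45037 probe sets, for 10 of 18194 genes named on the array. A probe set of its own was listed for 9 of the 10 genes, while Gbp4 shared its probe set with Gbp8.

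The arrays were of CD4+Foxp3+ regulatory T cells (Treg cells, which restrain other immune cells) from mouse spleen, strain C57BL/6. Total RNA of 2 samples labelled Foxo1/3-deficient and of 2 labelled wild-type was hybridised, 1 array each. The titles number the arrays as pair 1 and pair 2, with 1 array of each genotype in a pair. For the deficient samples the titles name both genes, but the genotype field names Foxo1 only. The labels used here give no treatment, age, sex, promoter or Cre for the deletion, and do not say whether animals were pooled or were separate between arrays, so any spread between the 2 arrays of a group may be technical.

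GBPs and IRGs are made in large amounts after interferon-gamma binds its receptor and sets off signalling that includes the transcription factor IRF1. The GBPs are large GTPases that assemble on the membranes of vacuoles holding intracellular pathogens and help to break them open. The IRGs divide into effectors such as Iigp1, which load onto those vacuoles, and the regulators Irgm1, Irgm2 and Igtp, which sit on the cell's own membranes and keep the effectors inactive there. In T cells, Irgm1 is also known to protect dividing CD4 cells from death caused by interferon-gamma. Foxo1 and Foxo3 are forkhead transcription factors, kept out of the nucleus by PI3K and AKT signalling.

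Values are MAS5 probe-set signals, on a linear scale. All 4 arrays had the same 2% trimmed mean (500.003), and between any 2 of them the Pearson r of log2 signals ran from 0.960 to 0.972 (across probe sets, which are not independent replicates). The targeted genes went partly against the labels. The brightest Foxo1 probe set read 6949 and 6697 on the arrays labelled Foxo1/3-deficient (pair 1, then pair 2, as in every pair of values below), against 2383 and 1254 on the wild-type arrays (limma adjusted p = 0.0209; 0.0685 with dim probe sets kept in and 0.0788 with no intensity trend in the variance). Its other probe sets above the filter went further the same way, at 4485 and 4015 against 1161 and 720 and at 3133 and 3438 against 786 and 612. Foxo3 read 1424 and 1308 against 1876 and 2635 (adjusted p = 0.241, or 0.0127 when the fit held the pair as a block). Its other probe set above the filter read 554 and 521 against 861 and 1001, also lower on the labelled-deficient arrays. The sources used here do not place these probe sets relative to the deleted parts of the genes, and every direction below is that of the arrays as labelled. Whether the genotype labels were exchanged was not tested, and an exchange would turn every one of these directions. The Treg and CD4 T cell markers, Foxp3 among them, passed the filter for 9 of 9 genes, with summed signals of 57570 and 57570 on the labelled-deficient and 56879 and 59931 on the wild-type arrays.

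Of the 14 probe sets, 13 passed the filter on dim signals (a signal of about 40.5), and 9 of the 10 genes could be followed. Against wild-type, Gbp2b alone was higher on the labelled-deficient arrays, and the other 8 genes were lower by amounts between log2 -0.22 (Gbp2) and -1.34 (Iigp1). Differences are of log2(signal + 17), a scale that understates the change of dim genes. The median of the 9 genes was -0.63, against -0.0034 for all 12115 genes tested. Past the threshold of 0.05 on limma's adjusted p stood Gbp2b above (1 of 9, where 1.21% of all genes were called higher) and Gbp6 and Iigp1 below (2 of 9, where 1.35% were called lower). With the pair as a block these counts were 1 and 5, where 5.23% and 6.36% of all genes were called, and Irgm1, Irgm2 and Igtp joined. Because this contrast chose the genes, their differences are given as a description and nothing is read from these counts. As part of that description, the Gbp2b difference lay between log2 2.89 and 3.67 when any 1 array was left out. Without the labelled-deficient array of pair 1 neither Gbp6 nor Iigp1 was called, and without that of pair 2 only Gbp6 was.

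**Figure D1:**
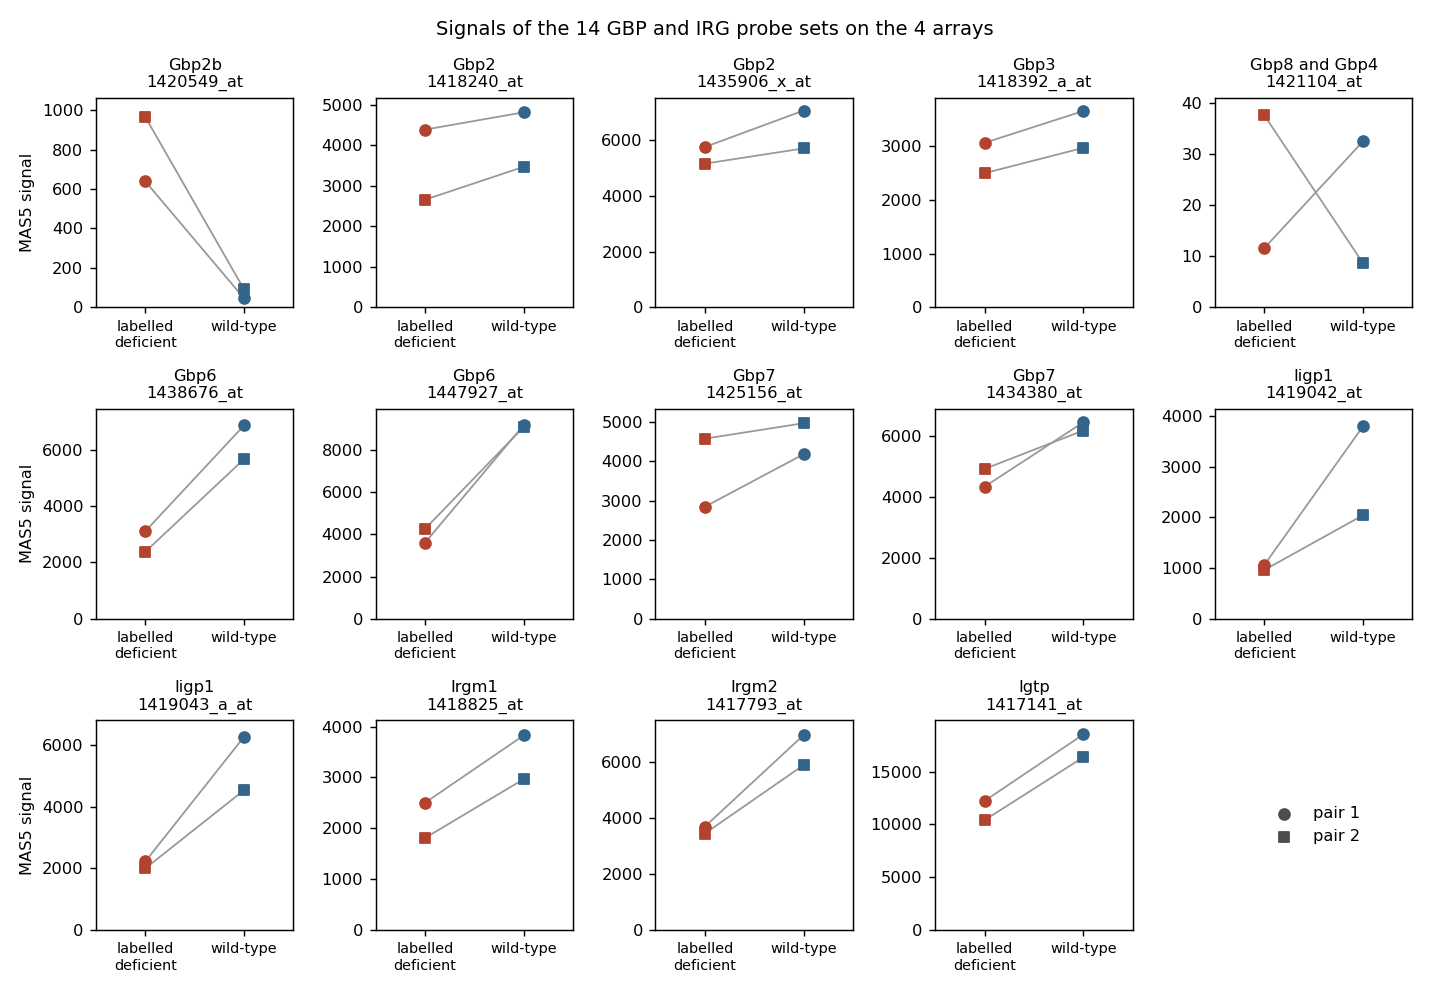
MAS5 signal (linear scale, each axis starting at 0) of each of the 14 probe sets on the 2 arrays labelled Foxo1/3-deficient (red) and the 2 wild-type arrays (blue), with a line joining the arrays of a pair (circles for pair 1, squares for pair 2). Gbp2b is the gene whose 2 lines both run down to wild-type, and the dim probe set of Gbp8 and Gbp4 is the one whose lines run in opposite directions.

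Gbp2b, also written Gbp1, is the member that went up. Its only probe set (1420549_at) read 639 and 965 on the labelled-deficient arrays, against 46.1 and 91.4 on the wild-type arrays. Both wild-type arrays were dim, the lower of them near the filter, and both labelled-deficient arrays lay well above them, with no overlap. The ratio of the raw signals was 13.9 in pair 1 and 10.6 in pair 2, and the mean difference was log2 3.28 ± 0.38 (SE), or 9.70-fold on the scale with the pseudocount. Detection calls were not analysed here, so the wild-type signals are not separated from absence. Inbred mouse strains are known to differ in whether interferon induces Gbp2b. Both genotypes carry the same strain label here, but the labels do not give the strain of origin of the targeted alleles. A part of strain in the Gbp2b difference was not tested and cannot be told apart from genotype.

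Among markers of other spleen cells, those of macrophages and monocytes stood above wild-type in sum, as Gbp2b did. Their summed signal over 9 genes was 16317 and 11473 on the labelled-deficient arrays, against 10698 and 6786 on the wild-type arrays. None of the 8 that passed the filter was called, where 1.21% of all genes were called higher. With the pair as a block, Csf1r, Adgre1, Vcam1 and Spic were called higher, where 5.23% of all genes were. The brightest of them, Csf1r, read 6676 and 5165 against 4749 and 2987. The other 4, Cd14, Fcgr1, Cd68 and Lyz2, differed by log2 0.50, 0.34, 0.08 and -0.14, and Itgam stayed below the filter, at no more than 36.1 on any array. B cell markers summed to 2602 and 1675 against 2236 and 755, and Ms4a1 among them (1611 and 998 against 1081 and 423) was called higher with the block (limma adjusted p = 0.00494). Dendritic cell markers summed to 927 and 708 against 899 and 704, and 0 of 3 natural killer cell markers passed the filter. CD8 T cell markers summed to 423 and 663 against 518 and 367, lower in pair 1 and higher in pair 2. Neutrophil markers, of which 1 of 2 passed the filter, summed to 151 and 17.3 against 225 and 61.7, lower in both pairs. The part of these cells in the Gbp2b signal was not tested. In such bulk samples a difference in the number of cells of a type and a difference in RNA per cell cannot be told apart.

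In the RefSeq gene order, Gbp5, Gbp7, Gbp3, Gbp2b and Gbp2 follow one another without another protein-coding gene between them, so the neighbours of Gbp2b are family members. Gbp2, which is recruited to vacuoles of Toxoplasma, read 5748 and 5152 against 7055 and 5699 on probe set 1435906_x_at. The other Gbp2 probe set (1418240_at) read 4391 and 2660 against 4818 and 3473. The groups overlap on both, and the differences were log2 -0.22 ± 0.21 and -0.26 ± 0.29. The suffix x marks a probe set that Affymetrix rates as open to cross-hybridisation, so signal from other GBPs in it cannot be told apart.

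Gbp3 (1418392_a_at) read 3066 and 2501 against 3659 and 2973, a difference of log2 -0.25 ± 0.23, with overlapping groups. Its ratio was 0.838 in pair 1 and 0.841 in pair 2, so the groups overlapped through the difference between the pairs. Gbp7, known to help assemble the NADPH oxidase on phagosomes in macrophages, read 4332 and 4915 against 6449 and 6177 on 1434380_at, where the groups did not overlap. On 1425156_at it read 2845 and 4580 against 4184 and 4974, where they did. Its differences were log2 -0.45 ± 0.20 and -0.34 ± 0.27. The 3 measured neighbours of Gbp2b in the cluster thus all stood below 0, at log2 -0.22 to -0.45 over their 5 probe sets.

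The genes that flank this cluster were looked up after these values were seen. Pdlim5 on one side differed by log2 0.22 ± 0.27, and Kyat3 and Gtf2b on the other by 0.20 ± 0.35 and -0.17 ± 0.21 (limma adjusted p = 0.864, 0.922 and 0.864). Gbp5, which lies between Pdlim5 and Gbp7, was not analysed here. Besides Gbp2b, the measured genes of this stretch thus lay between log2 -0.45 (Gbp7) and 0.22 (Pdlim5).

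**Figure D2:**
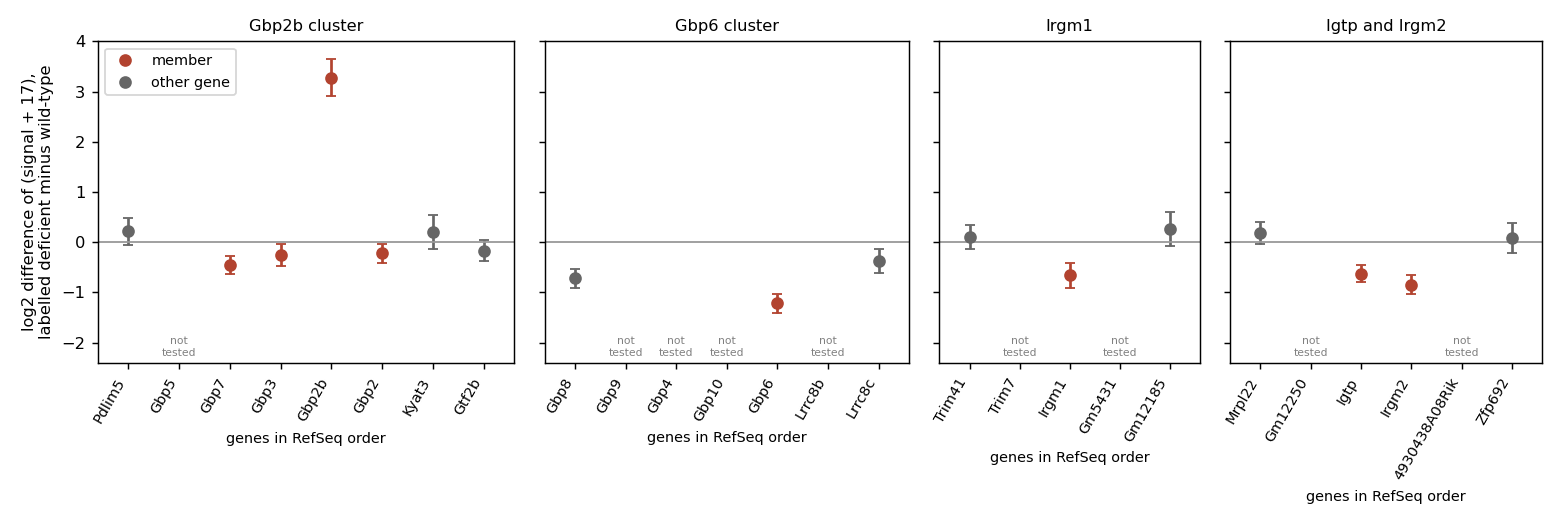
Log2 difference of (signal + 17), labelled-deficient minus wild-type, for the genes around each group of members in RefSeq order (points with SE bars from limma; members in red, other genes in grey; distances are not to scale). Gbp2b stands at 3.28 between Gbp3 at -0.25 and Gbp2 at -0.22.

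The promoters of Gbp2b, Gbp2 and Gbp7 are shown because these neighbours differ in direction or size. Each is 300 bases from RefSeq (GRCm38.p6, gene strand), 250 before and 50 after the annotated start, at chr3:142594597-142594896 for Gbp2b, chr3:142620413-142620712 for Gbp2 and chr3:142530086-142530385 for Gbp7, all on the plus strand. Capitals mark matches to the core of the interferon-stimulated response element (ISRE), which was searched as GAAA, any 2 bases and GAAA again, and to TTCNNNGAA, the gamma-activated site (GAS) of interferon-gamma targets, on either strand.
Gbp2b: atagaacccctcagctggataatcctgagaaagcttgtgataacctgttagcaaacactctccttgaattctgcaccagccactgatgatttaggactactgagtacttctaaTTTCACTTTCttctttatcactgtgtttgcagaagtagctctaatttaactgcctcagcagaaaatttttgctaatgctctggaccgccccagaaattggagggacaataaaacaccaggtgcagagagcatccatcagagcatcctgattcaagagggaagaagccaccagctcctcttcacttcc
Gbp2: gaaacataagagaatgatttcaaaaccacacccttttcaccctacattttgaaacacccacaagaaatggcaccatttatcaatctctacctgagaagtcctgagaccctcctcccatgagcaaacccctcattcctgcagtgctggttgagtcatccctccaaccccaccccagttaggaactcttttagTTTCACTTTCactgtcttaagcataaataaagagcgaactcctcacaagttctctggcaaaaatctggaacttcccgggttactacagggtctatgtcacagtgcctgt
Gbp7: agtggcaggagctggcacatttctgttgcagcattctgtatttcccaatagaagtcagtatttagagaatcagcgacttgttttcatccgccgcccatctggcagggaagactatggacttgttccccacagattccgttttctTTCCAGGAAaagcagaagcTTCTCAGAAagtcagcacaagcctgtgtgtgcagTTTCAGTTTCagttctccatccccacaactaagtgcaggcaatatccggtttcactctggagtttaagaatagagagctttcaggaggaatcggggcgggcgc

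The Gbp2b and Gbp2 promoters hold the same ISRE letters, TTTCACTTTC, on the strand printed. In Gbp2b they lie 137 to 128 bases before the start, and in Gbp2 59 to 50 bases before it. The Gbp7 promoter has TTTCAGTTTC 53 to 44 bases before the start and GAS matches beginning 106 and 87 bases before it. Over 7 members with a promoter entry, 7 had an ISRE match in at least 1 promoter, and 3 (Gbp7, Igtp and Irgm2) had a GAS match. Counted by promoter, 7 of 8 held the ISRE core and 3 of 8 the GAS letters, since a further promoter entry of Gbp3 held neither. Of all 32851 promoters of that length, 3.44% held the ISRE core and 8.3% the GAS letters. The forkhead core GTAAACA, on either strand, matched in Gbp3 alone among the members and in 3.65% of all promoters. So Gbp2b and the 6 members searched that stood below 0 share the ISRE letters, at different distances from the start. Gbp4, Gbp6 and Iigp1, the last 2 of them the members called lower, were not searched. A match is a description of these letters in this window, and binding was not measured.

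**Figure D3:**
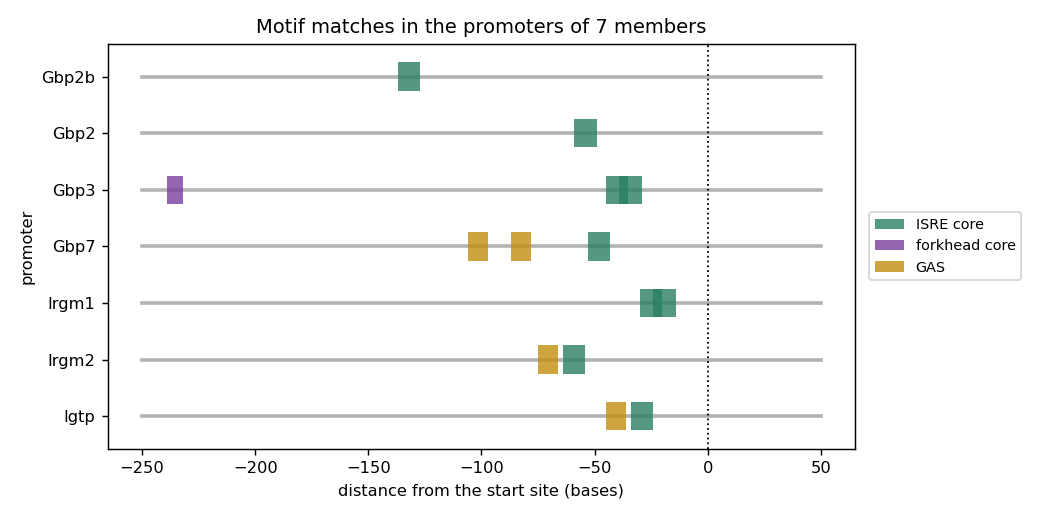
Matches to the ISRE core (green), GAS (ochre) and forkhead core (purple) letters by distance in bases from the annotated start (dotted line at 0) in 1 promoter of each of 7 members. The ISRE match of Gbp2b lies farther from the start than those of the other 6, and in Gbp3 and Irgm1 the ISRE matches overlap one another.

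Gbp6 was the GBP that stood lowest against wild-type, and both of its probe sets showed it. On 1447927_at it read 3609 and 4268 on the labelled-deficient arrays, against 9207 and 9118 on the wild-type arrays. On 1438676_at it read 3109 and 2378 against 6879 and 5679. The groups were well apart on both, the ratios ran from 0.392 to 0.468, and the differences were log2 -1.22 ± 0.20 and -1.20 ± 0.23, so the probe sets differed from each other by less than their SE.

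Gbp6 belongs to another run of GBP genes, in which RefSeq lists Gbp8, Gbp9, Gbp4, Gbp10 and Gbp6 one after the other. Gbp8, which is no member, was lower too, at 3644 and 4443 against 6649 and 6594, with no overlap (log2 -0.72 ± 0.19, limma adjusted p = 0.116, or 0.00436 with the block). Gbp4 has no signal of its own: the probe set it shares with Gbp8 (1421104_at) read 11.6 and 37.7 against 32.6 and 8.67. It failed the filter, and its ratio was 0.357 in pair 1 and 4.34 in pair 2, so it gave no direction. Gbp9 and Gbp10 were not analysed here.

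Of the IRGs, all 5 probe sets were lower on the labelled-deficient arrays, with no overlap between the groups on any of them. Among all 27022 probe sets above the filter, both labelled-deficient arrays lay below both wild-type arrays in 17.5%, and above them in 20.9%. Over the 13 member probe sets this held for 8 below and 1 above. Since the contrast chose the genes, nothing is read from that count either.

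Iigp1 (Irga6), the effector among them, read 2222 and 1996 on the labelled-deficient arrays, against 6282 and 4545 on the wild-type arrays (1419043_a_at). Its other probe set (1419042_at) read 1059 and 960 against 3802 and 2044. The labelled-deficient arrays were close together on both, and the wild-type array of pair 1 was higher than that of pair 2. The ratios were therefore 0.354 and 0.439 on the first and 0.279 and 0.470 on the second, and the differences log2 -1.34 ± 0.24 and -1.45 ± 0.32. Without the wild-type array of pair 1 the Iigp1 difference was -1.10, and without that of pair 2 it was -1.57.

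The 3 regulators differed by less. Irgm2 (1417793_at) read 3696 and 3449 against 6980 and 5904 (log2 -0.84 ± 0.20), with ratios of 0.530 and 0.584. Irgm1 (1418825_at) read 2501 and 1807 against 3829 and 2967 (log2 -0.66 ± 0.26), with ratios of 0.653 and 0.609. Igtp (Irgm3, 1417141_at) read 12214 and 10390 against 18518 and 16359 (log2 -0.63 ± 0.18), with ratios of 0.660 and 0.635. Each regulator was lower by a similar ratio in both pairs, and no test was made among the 3.

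**Figure D4:**
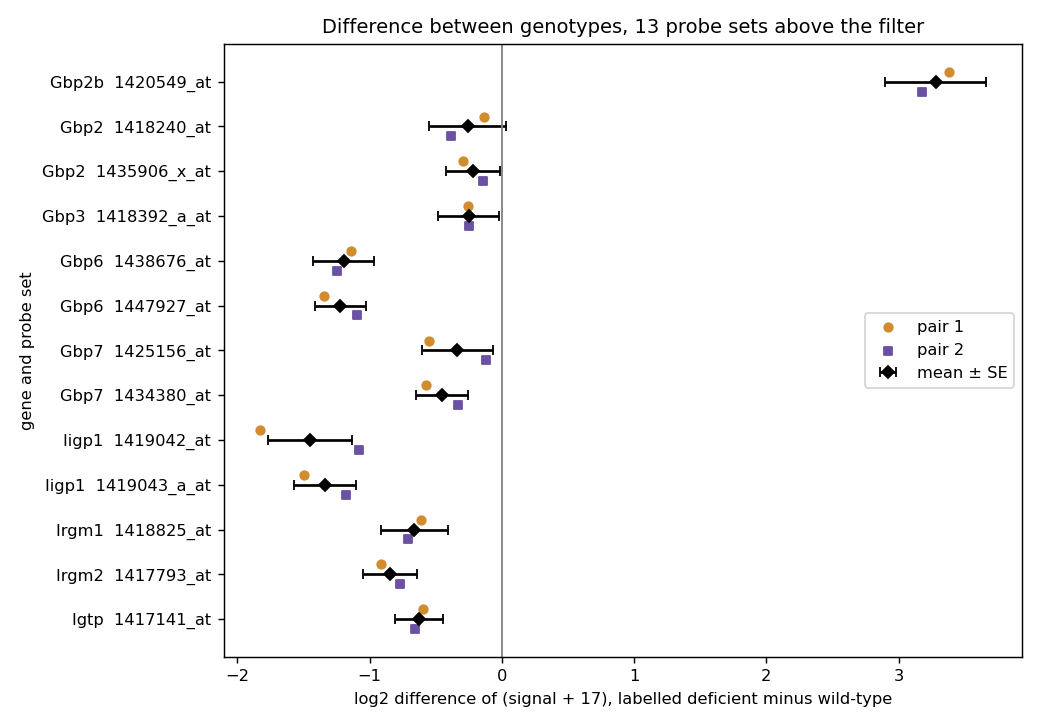
Log2 difference of (signal + 17), labelled-deficient minus wild-type, for the 13 probe sets above the filter (diamonds, with bars for the SE of limma's fit over all probe sets; circles and squares for the difference within pair 1 and pair 2). Gbp2b lies at 3.28 and the other 12 lie between -0.22 and -1.45, with every within-pair value below 0.

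Igtp and Irgm2 stand next to each other in RefSeq, and their promoters are shown because they are neighbours with much the same promoter sequence. They lie on the plus strand at chr11:58199306-58199605 (Igtp) and chr11:58214727-58215026 (Irgm2), with capitals as above.
Igtp: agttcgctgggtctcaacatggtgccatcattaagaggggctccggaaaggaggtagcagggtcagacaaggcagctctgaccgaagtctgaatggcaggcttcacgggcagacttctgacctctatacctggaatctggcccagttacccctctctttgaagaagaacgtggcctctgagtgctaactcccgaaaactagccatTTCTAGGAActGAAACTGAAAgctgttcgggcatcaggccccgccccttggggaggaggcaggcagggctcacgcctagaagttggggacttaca
Irgm2: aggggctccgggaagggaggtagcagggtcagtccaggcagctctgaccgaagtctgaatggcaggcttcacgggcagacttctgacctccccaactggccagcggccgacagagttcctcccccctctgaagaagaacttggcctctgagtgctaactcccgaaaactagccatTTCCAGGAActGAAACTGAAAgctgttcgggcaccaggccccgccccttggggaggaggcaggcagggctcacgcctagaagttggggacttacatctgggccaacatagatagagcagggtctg

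In a global alignment 92.1% of the bases aligned without a gap were identical, or 72.8% of the whole alignment with its gaps. The other pairs of member promoters reached 55.7% to 67.2% and 40.5% to 50.6% by these measures. The Igtp and Irgm2 promoters both have a GAS match followed after 2 bases by an ISRE match, GAAACTGAAA, which begins 34 bases before the start in Igtp and 64 before it in Irgm2. The GAS match reads TTCTAGGAA in Igtp and TTCCAGGAA in Irgm2. With promoters this alike, how far the probe sets of the genes themselves share sequence was not tested.

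The difference between the pairs did not enter the choice of the genes, so it was tested, with genotype as a covariate. By limma, 0 of 9 members differed between pair 2 and pair 1 in either direction, where 2.96% of all genes were called higher and 3.81% lower in pair 2. At an unadjusted p under 0.05 there were 2 of 9, Irgm1 and Gbp2b, where 21.1% of all genes passed. Irgm1 was lower in pair 2 in both genotypes (log2 -0.42 ± 0.15, adjusted p = 0.122) and Gbp2b was higher in pair 2 in both (0.68 ± 0.28, adjusted p = 0.166). The median over the 9 was -0.21, against -0.04 for all genes. A value that misses the threshold with 1 residual degree of freedom does not show that the pairs were alike.

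Whether the genotype difference itself varied between pairs has no test, because 4 arrays leave no residual degrees of freedom for it. Among the probe sets above the filter the difference in pair 2 minus that in pair 1 ran from log2 -0.25 (Gbp2, 1418240_at) to 0.75 (Iigp1, 1419042_at). For Gbp2b it was -0.20, small beside its difference of 3.28.

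Genes with the profile closest to that of Gbp2b over the 4 arrays, by Euclidean distance between log2 values centred on their own mean, were Igf1r (0.41), Myo6 (0.44), Cnga1 (0.48), Ms4a6c (0.63) and Tubb2b (0.74). Igf1r, the nearest of them, read 1253 and 1571 on the labelled-deficient arrays, against 104 and 132 on the wild-type arrays. The genes closest to Iigp1 were Crybg2 (0.066), Niban2 (0.071), S100a6 (0.11), Spag5 (0.16) and Cpd (0.16). S100a6 read 3730 and 3164 against 10809 and 7180, with the wild-type array of pair 1 above that of pair 2, as for Iigp1. None of the 10 is a GBP or an IRG. With 4 arrays many genes share a profile, so the likeness is a description of these arrays.

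Other interferon-inducible GTPases lay below 0 as well, though none passed the threshold. Of 16 listed, 7 were named on the array and 5 passed the filter, and all 5 differences lay below 0, with a median of log2 -0.72 against -0.0034 for all genes tested. By limma 0 rose and 0 fell, where 1.21% of all genes rose and 1.35% fell. At an unadjusted p under 0.05 these counts were 0 and 3. The share of all genes at that cut was not analysed here, so nothing is read from these 2 counts. With the pair as a block 3 (Gbp8, Gm4951 and Mx1) were called lower, where 6.36% of all genes were. Mx1 read 220 and 262 against 558 and 474, and Gm4951, an IRG-related gene, read 84.5 and 85.9 against 219 and 204. Ifi47 (Irgd), an IRG effector, read 12330 and 11850 against 16081 and 12984, a difference of -0.26 ± 0.18.

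Upstream of the GTPases, Ifng fell and the receptor genes did not pass the threshold. Of 20 genes for the ligand, receptors and signalling, 19 were tested, and 2 fell and 0 rose, where 1.35% of all genes fell and 1.21% rose. With the pair as a block 6 fell and 1 rose, where 6.36% and 5.23% of all genes did. The median was log2 -0.21. Ifng, which encodes interferon-gamma, read 254 and 298 against 1382 and 2738 (log2 -2.75 ± 0.35, limma adjusted p = 0.0107). Irf8, a transcription factor that binds ISRE-like sites with partners, read 1497 and 2180 against 4620 and 4252 (-1.29 ± 0.24, adjusted p = 0.0380), and was not called without the labelled-deficient array of pair 1 (0.176).

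Irf1, needed for full induction of GBPs, read 5949 and 6198 against 11030 and 10528, with no overlap, and stood just outside the threshold (log2 -0.83 ± 0.17, limma adjusted p = 0.0511, or 0.00139 with the block). The receptor genes Ifngr1 and Ifngr2 differed by -0.27 ± 0.36 and 0.42 ± 0.31 (adjusted p = 0.876 and 0.706). Ifng and Irf1 thus stood below wild-type together with 8 of the 9 GTPase genes, and Gbp2b went the other way. The part of Ifng in the GTPase signals was not tested.

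Targets of interferon-gamma other than the GTPases lay mostly below 0. Of 36 listed, 29 were tested, and 27 of these lay below 0 and 2 above it, where 49.7% of all genes lay above 0, with a median of log2 -0.58. By limma 2 fell and 0 rose, where 1.35% of all genes fell and 1.21% rose. With the pair as a block 13 fell and 0 rose, where 6.36% and 5.23% of all genes did. Il12rb1, a receptor chain for interleukin-12, read 382 and 370 against 2519 and 1923 (-2.50 ± 0.25, adjusted p = 0.00543). Casp1, the protease of the inflammasome, read 384 and 722 against 1964 and 2819 (-2.12 ± 0.34, adjusted p = 0.0255).

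The machinery that couples ATG8 proteins to membranes, which steers GBPs and IRGs to vacuoles, showed no common direction. Of 12 genes tested 1 fell and 0 rose, where 1.35% of all genes fell and 1.21% rose. With the pair as a block 1 fell and 1 rose, where 6.36% and 5.23% of all genes did. Of the 12, 8 lay above 0 and 4 below, where 49.7% of all genes lay above 0, and the median was log2 0.04. The gene that fell was Atg7, the E1-like enzyme of the pathway, at 298 and 233 against 679 and 915 (-1.52 ± 0.29, limma adjusted p = 0.0408). It was not called without either labelled-deficient array (0.0755 without that of pair 1, 0.148 without that of pair 2) or without the wild-type array of pair 2 (0.0783).

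**Figure D5:**
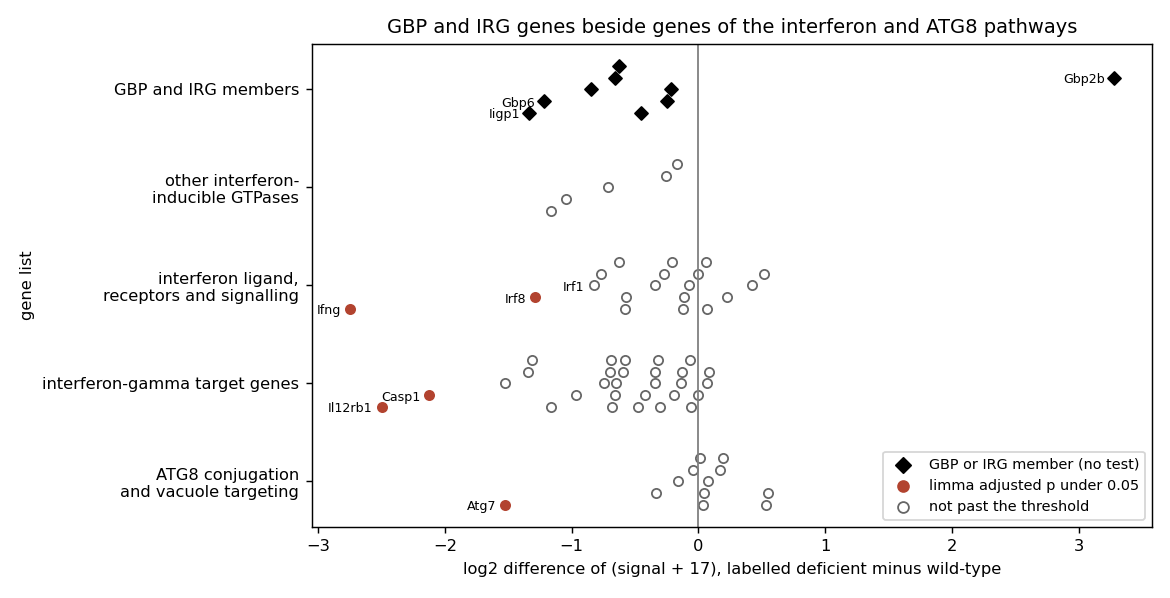
Log2 difference of (signal + 17), labelled-deficient minus wild-type, for each tested gene of 5 lists (black diamonds for the GBP and IRG members, for which no call is shown because this contrast chose them, written as no test in the key, filled red circles for other genes with a limma adjusted p under 0.05, open circles for the rest). Height within a list only separates points. Gbp2b at 3.28 lies apart from every other gene of the 5 lists, and Ifng at -2.75 is the lowest.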

How the data were processed

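Probe-set intensities of 4 arrays, 1 column each, were used as deposited. They were made with MAS5 on a linear scale, per the submitters' processing notes; the sources used here give no version, settings or detection calls. Genes were named from the platform annotation, which can be old, with symbols updated by gene ID from RefSeq (34741 of 34945 single-gene probe sets matched). The members, lists and tests were chosen with earlier results of these data known.

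Signals were analysed as log2(signal + 17), 17 being the 25th percentile rounded. Probe sets with a mean under the 40th percentile were left out, and the brightest kept probe set stood for a gene, which left 12115 genes (27022 probe sets when each was tested). The comparisons used limma 3.58.1 under R 4.3.3 (lmFit, eBayes with trend, two-sided, Benjamini-Hochberg over all genes; 2 residual and 5.69 prior degrees of freedom). SEs of members are from the fit over probe sets where a probe set is named and otherwise from that over genes. An exact test of 2 against 2 arrays cannot go below p = 0.333, so every p leans on the shared variance model. The number of arrays limits the precision. The fits were tested on simulated data.

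The pairing comes from the titles. Across genes, the 2 arrays of a pair deviated from their group means together (r = 0.367, over 2 pairs), and the pair was also fitted as a block. All members are named; other genes are named where called (at most 6 a list), with Ifng and Irf1 in any case (a further gene of that rule is not reported here), and the 5 nearest profiles of Gbp2b and of Iigp1. Gbp8, Mx1, Gm4951, Ifi47, the receptor genes, the flanking genes and the single macrophage and B cell markers were singled out after their values were seen. Promoters came from RefSeq (GRCm38.p6) and were aligned with Biopython 1.88.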

Additional observations from a re-analysis of the deposited data

How the results depend on the processing

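Over 12 alternatives to the genotype fit, each changing 1 choice, every one of the 9 members kept the sign of its difference. Gbp2b ranged from log2 2.59 (median of all signals, 75.9, as pseudocount) to 3.67, Iigp1 from -1.57 to -1.10 and Gbp6 from -1.34 to -1.10. The count of members called higher was 1 throughout. Members called lower were 0 without the filter and 0 without the intensity trend, 5 with the pair as a replicate block, and 0 to 2 when 1 array was left out. Over all genes, 147 were called higher and 164 lower, against 45 and 44 without the filter, 57 and 54 without the trend, and 634 and 770 with the pair block. They were 67 to 278 higher and 82 to 266 lower when 1 array was left out (lowest without labelled-deficient replicate 1, highest without wild-type replicate 1). Between the pairs, 359 genes were called higher and 462 lower in pair 2, against 148 and 198 without the filter, 3 and 0 without the trend, and 1 and 0 without the genotype term. Over every probe set they were 150 and 178, and 207 were higher with probe sets averaged. Members called between the pairs were 0 in all of these. Irf8, Casp1 and Atg7 missed the threshold without the filter (limma adjusted p = 0.0923, 0.0771 and 0.101) and without the trend (0.111, 0.0775 and 0.0788). Irf1 passed it with quantile normalization (0.0431), the filter at the 60th percentile (0.0468), and probe sets averaged (0.0494). Apart from fewer or more genes or arrays entering a fit, the causes were not tested.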
